A study of Homo sapiens with 12 samples.

Results

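The 7SK RNA and the RNAs of the proteins that assemble on it were followed in HEK293T cells with and without disruption of the HNRNPUL1 gene. The members are the 8 genes RN7SK, LARP7, MEPCE, HEXIM1, HEXIM2, CDK9, CCNT1 and CCNT2, taken by their symbols from the 61163 genes of the count tables. All 8 had counts in each of the 12 libraries, and all 8 passed the filter on low counts in every comparison.

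The study sequenced total RNA, without removal of rRNA, from a nucleolar (NO) fraction and a cytoplasmic-nuclear (CN) fraction. HEK293T is an established cell line from human embryonic kidney that carries a viral large T antigen. HEK WT are the unedited cells, and HEK UL1 KO is a HEK293T line in which HNRNPUL1 was disrupted by CRISPR-Cas9 with guides against a pair of its exons. Whether that line comes from 1 clone is not stated in the sources used here. No drug or other treatment separates the groups. Each of the 4 combinations of genotype and fraction has 3 libraries, which the labels call biological triplicates. How the replicate cultures were grown apart is not described, so p-values measure the spread between these libraries.

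7SK is a short nuclear RNA made by RNA polymerase III. It serves as a scaffold on which MEPCE caps the 5′ end, LARP7 holds the 3′ end, and a HEXIM protein binds the kinase P-TEFb and keeps it inactive. P-TEFb is CDK9 with a cyclin T, CCNT1 or CCNT2. Once released from 7SK, it phosphorylates the C-terminal domain (CTD) of RNA polymerase II and the pausing factors NELF and DSIF, which lets paused polymerase elongate.

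RN7SK lies on chromosome 6 of GRCh38, at chr6:52995620-52995951 on the plus strand in the RefSeq annotation, as 1 exon of 332 bases. Its 5′ end folds into the hairpin that HEXIM proteins recognise through GATC motifs, and its 3′ end carries the run of T that La-type proteins such as LARP7 bind in the RNA. Both ends are shown because the proteins followed here bind them. The GATC motifs, 3 in the first 100 bases, and the 4 last T are in capitals.
RN7SK bases 1 to 100, chr6:52995620-52995719: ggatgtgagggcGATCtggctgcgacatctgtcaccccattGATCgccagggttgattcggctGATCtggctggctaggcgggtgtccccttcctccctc
RN7SK bases 273 to 332, chr6:52995892-52995951: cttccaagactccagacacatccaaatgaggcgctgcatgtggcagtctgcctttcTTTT

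The human genome also holds many partial copies of this RNA, named RN7SKP, and the tables list 304 of them. The 3 stretches below face RN7SK bases 1 to 60 in copies with high counts, and they are shown because they place the copies beside the end that HEXIM proteins recognise. Capitals mark the bases that differ from RN7SK.
RN7SK, chr6:52995620-52995679, plus strand: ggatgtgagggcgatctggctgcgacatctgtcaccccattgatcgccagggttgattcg
RN7SKP71, chr12:112267077-112267136, plus strand: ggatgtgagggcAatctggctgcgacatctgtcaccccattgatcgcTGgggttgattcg
RN7SKP203, chr2:76445351-76445410, minus strand: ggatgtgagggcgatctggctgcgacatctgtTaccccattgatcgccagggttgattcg
RN7SKP255, chr14:89712511-89712570, plus strand: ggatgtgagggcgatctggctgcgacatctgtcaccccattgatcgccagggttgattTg

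The proteins' genes are spread over the genome, here with GENCODE release 44 positions in GRCh38. LARP7 is on the plus strand at chr4:112637077-112657696, MEPCE on the plus strand at chr7:100428322-100434126 and CDK9 on the plus strand at chr9:127785679-127790792. HEXIM1 and HEXIM2 are neighbours on the plus strand of chromosome 17, at chr17:45148475-45152099 and chr17:45160700-45170040. CCNT1 is on the minus strand at chr12:48688458-48716998, and CCNT2 is on the plus strand at chr2:134918235-134959342. LARP7 overlaps the host gene of the miR-302 cluster, MIR302CHG, which had 0 to 5 counts per library. Both HEXIM genes overlap the antisense gene HEXIM2-AS1, and HEXIM2 also overlaps HEXIM2-AS2. Neither symbol is among those counted, and reads of the 2 strands cannot be told apart because the strand setting of the counting is not stated.

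Library totals ranged from 37141666 to 104040073 counts. HNRNPUL1 was lower in HEK UL1 KO, at -1.997 on the log2 scale in NO (adjusted p = 0.00649, edgeR) and -1.83 in CN (adjusted p = 2.12e-07, edgeR). RNA of the gene remained, at 152 to 453 counts in NO of HEK UL1 KO (551 to 697 in HEK WT) and 288 to 360 in CN (1290 to 1495 in HEK WT). All 8 markers fixed for HEK293T (KRT8, KRT18, VIM, PAX2, LHX1, NEFL, NEFM and LIN28B) had counts in every library. So did PTPRC and CDH5, which HEK293T should lack, so having counts does not set the markers apart. SNORD3A, the nucleolar U3 RNA, was 25.5-fold higher in NO than in CN of HEK WT and 16.4-fold higher in HEK UL1 KO. Of the genes that HEK293T should lack, PTPRC reached 0.0481 to 0.393 CPM (counts scaled by the library total, and below also by TMM factors) in CN and 0.75 to 2.66 in NO, ALB 0 to 0.092 and 0.0769 to 0.446, and CDH5 0.0481 to 0.215 and 0.25 to 1.86. Genes of other cell types thus had more counts in NO, and the part of this in the results for the members was not tested. The 8 markers ranged in NO from LHX1, at 0.135 to 0.888 CPM, to VIM, at 10.7 to 29. Only VIM and LIN28B (7.43 to 16) lay wholly above the range of PTPRC there, while KRT8, KRT18, PAX2, LHX1, NEFL and NEFM overlapped it. The scaling between libraries matters for all directions below. Against TMM, scaling by total counts moved the median log2 fold change of all genes by 0.40 in NO and 0.20 in CN between genotypes, and by 0.35 in HEK WT and 0.76 in HEK UL1 KO between fractions, and a single reference gene moved it by 0.83 in NO (SNORD3A) and by -0.35 in CN (GAPDH). The split of all calls moved with it, from 127 higher and 200 lower in NO to 7 and 3 with total counts and 11246 and 89 with SNORD3A, and from 4253 higher and 6070 lower in CN to 3697 and 1724 with total counts and 1092 and 9068 with GAPDH. Between fractions, 9355 genes were higher and 6139 lower in NO of HEK WT, against 6387 and 606 with total counts, and 14023 and 12264 in HEK UL1 KO, against 18471 and 825.

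RN7SK was the only member whose level per length stood far above the others. On the scale of CPM per kilobase of exon, scaled over all 12 libraries, it had a level of 1277 ± 174 in CN of HEK WT (SD, n = 3), 1476 ± 188 in CN of HEK UL1 KO, 493 ± 147 in NO of HEK WT and 409 ± 52.9 in NO of HEK UL1 KO. In CN of HEK WT, the cyclins CCNT2 and CCNT1 followed at 2.16 and 2.00 CPM per kilobase, and then LARP7 at 1.38, HEXIM1 at 0.685, MEPCE at 0.474, CDK9 at 0.357 and HEXIM2 at 0.124. The libraries of neighbours in this order did not overlap, except HEXIM1 with MEPCE and MEPCE with CDK9. The order depends on the length used, the union of all annotated exons (8094 bases for LARP7 and 9081 for CCNT2), and other lengths were not tried. In CN of HEK UL1 KO, CCNT1 stood above CCNT2, at 1.69 and 1.58 CPM per kilobase, but the libraries of the cyclins overlapped.

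In NO the order was less clear. CCNT2, LARP7 and CCNT1 lay between 1.05 and 1.13 CPM per kilobase in HEK WT and between 0.834 and 0.907 in HEK UL1 KO, and their libraries overlapped. HEXIM1 was at 0.421 in HEK WT and 0.575 in HEK UL1 KO. The 3 lowest members in NO were MEPCE (0.285 and 0.229), CDK9 (0.223 and 0.204) and HEXIM2 (0.169 and 0.160). For comparison, 403 olfactory receptor genes, a class that kidney-derived cells should not use and that was added once the data were known, had a 95th percentile of 0.104 to 0.237 CPM per kilobase in the NO libraries and of 0.0495 to 0.0903 in the CN libraries. CDK9, HEXIM2 and, in HEK UL1 KO, MEPCE thus had mean levels in NO within the range of that percentile, while in CN all 8 members had mean levels above it.

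**Figure D1:**
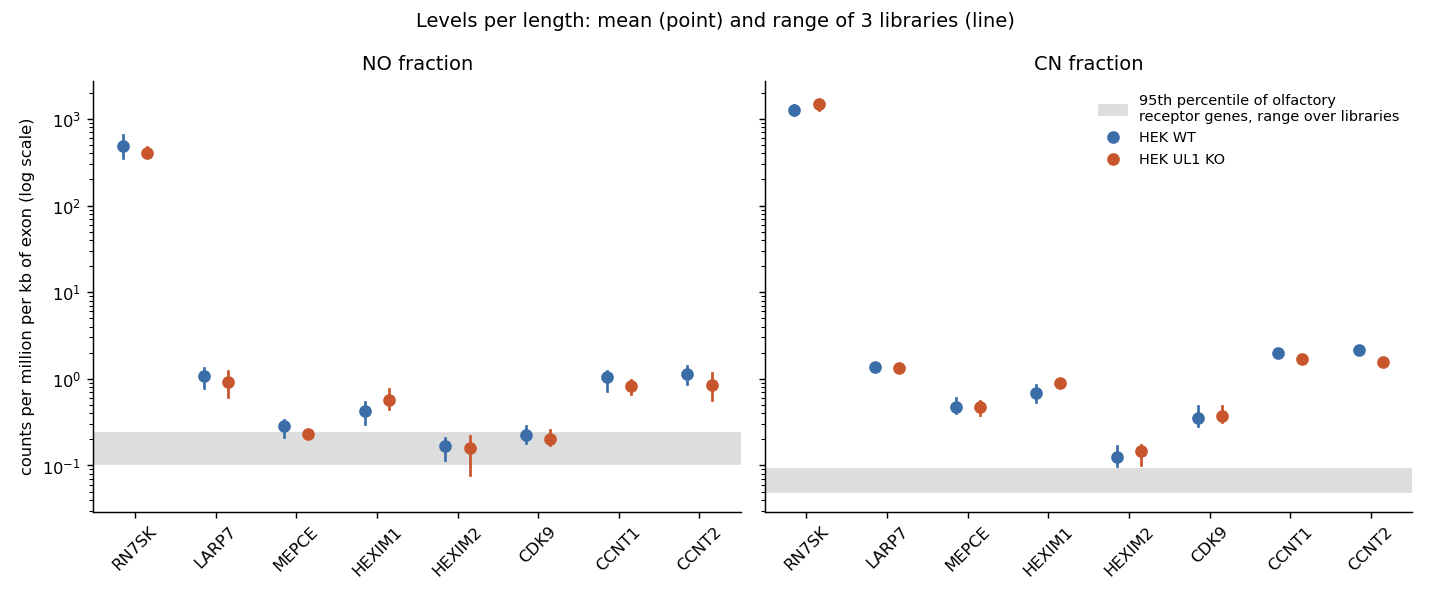
Level of each member in CPM per kilobase of exon on a log axis, in the NO fraction (left) and the CN fraction (right), with the mean of 3 libraries as a point and their range as a line. RN7SK lies far above the protein genes, and in NO the points of CDK9 and HEXIM2 fall in the grey band, the range over libraries of the 95th percentile of 403 olfactory receptor genes.

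The counts of RN7SK and of its copies stood in a narrow range of ratios. Of 304 RN7SKP entries, 297 had counts, and their sum was 1.69 to 1.88 times the RN7SK count in NO and 1.58 to 1.75 times in CN. The 5 entries with most counts (RN7SKP71, RN7SKP203, RN7SKP80, RN7SKP176 and RN7SKP255) held 80.2 to 91.0% of that sum. Each of them aligned to RN7SK over 239 to 269 columns with 96.3 to 98.3% identity.

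Of the 258 windows of 75 bases in RN7SK, 163 (63.2%) had a further exact match on the chromosomes of GRCh38, and 95 had none. The further matches lay in 6 RN7SKP entries, apart from 2 windows with a match elsewhere. RN7SKP71 matched 71 windows, RN7SKP203 matched 69, RN7SKP80 matched 54, RN7SKP255 matched 29, RN7SKP176 matched 5 and RN7SKP230 matched 3. The 5 entries with most counts are therefore among the 6 with such matches. How reads with several alignments were counted is not stated in the sources used here, so the RN7SK count and those of its copies are uncertain as separate values, and each log2 fold change of RN7SK below is also given for the sum of RN7SK and all RN7SKP entries.

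PLCG2, a phospholipase gene of blood cells, had counts close to those of 1 of these copies. RN7SKP176, at chr16:81961926-81962243, lies with all of its 318 bases inside an untranslated exon part of PLCG2. In CN, RN7SKP176 had 6156 to 9001 counts per library and PLCG2 had 6385 to 9219, a ratio of 1.02 to 1.04. In NO the ratio was 1.08 to 1.22. The counts of PLCG2 exceeded those of RN7SKP176 by 149 to 772 in the 12 libraries.

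**Figure D2:**
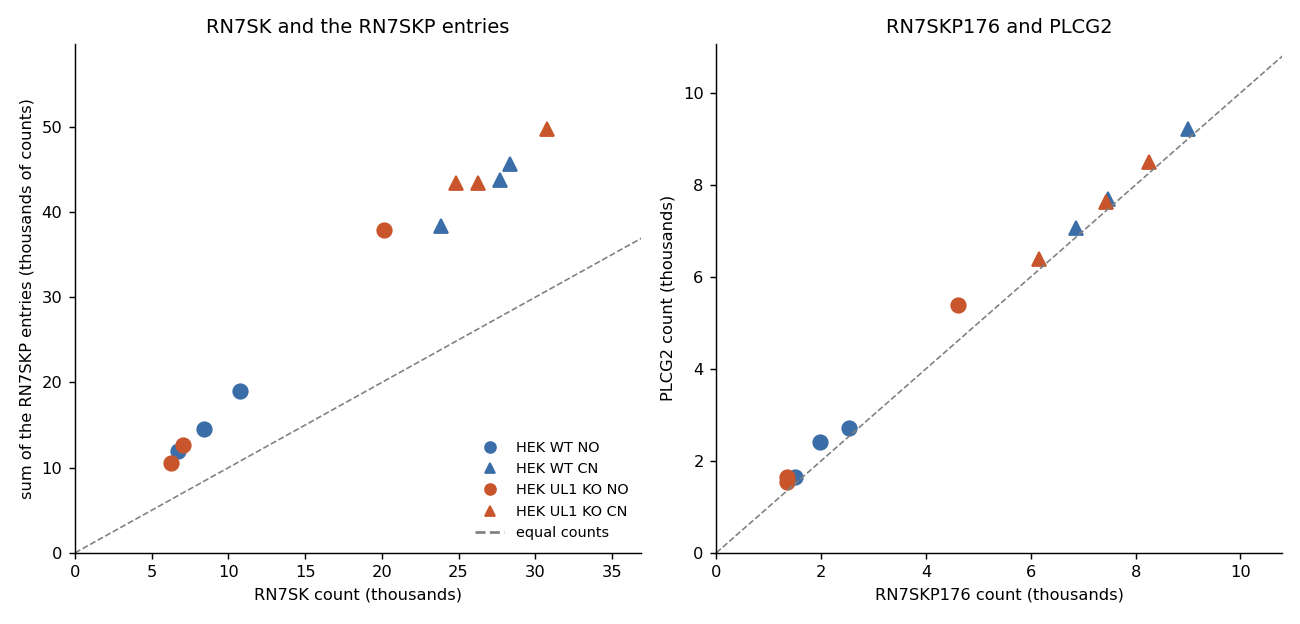
Counts per library, on linear axes, as circles for NO and triangles for CN, in blue for HEK WT and orange for HEK UL1 KO. On the left, the sum of the 304 RN7SKP entries is plotted against RN7SK and lies above the dashed line of equal counts in all 12 libraries, and on the right PLCG2 is plotted against RN7SKP176 and lies close to that line.

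HEK UL1 KO was first compared with HEK WT in the CN fraction, to ask whether disruption of HNRNPUL1 changes the RNA level of each part of the complex. HEXIM1, which inhibits the kinase, was higher in HEK UL1 KO, and CCNT2, which activates it, was lower. The other 6 members did not pass an adjusted p of 0.05. The share of members called, 2 of 8, has to be read against a background in which 37.9% of the 27234 genes tested in CN were called, 15.6% upward and 22.3% downward.

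RN7SK, the scaffold, had 283, 331 and 358 CPM in the 3 CN libraries of HEK WT and 339, 409.9 and 444 in those of HEK UL1 KO. The groups overlapped in 1 pair of values, and the means were 324 ± 38.2 and 398 ± 53.2 (SD, n = 3 each). The log2 difference was 0.29 (standard error 0.129, 95% confidence interval 0.01 to 0.58), with an unadjusted p of 0.0436 and an adjusted p of 0.0943 (edgeR). Summed with its copies, RN7SK was at a log2 fold change of 0.35 (adjusted p = 0.0674, edgeR). The call depended on the setting: RN7SK passed with total counts (0.51, adjusted p = 0.0397, edgeR), with at least 10 counts in every library (0.37, adjusted p = 0.0391, edgeR) and without HEK WT CN replicate 3 (0.42, adjusted p = 0.0138, edgeR), while with GAPDH as the reference its direction flipped to -0.06.

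LARP7, which protects the 3′ end of 7SK, had 8.61, 8.59 and 8.69 CPM in CN of HEK WT and 8.90, 9.61 and 8.02 in HEK UL1 KO. Its log2 fold change was 0.04 with a 95% confidence interval of -0.15 to 0.22 (adjusted p = 0.750, edgeR). MEPCE, the capping enzyme of 7SK, had 1.10, 1.06 and 1.53 CPM in HEK WT and 1.34, 1.04 and 1.57 in HEK UL1 KO, with a log2 fold change of 0.09 and an interval of -0.36 to 0.53. For both, the range of the HEK UL1 KO values enclosed that of the HEK WT values.

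HEXIM1 had 1.92, 1.54 and 2.29 CPM in CN of HEK WT and 2.48, 2.81 and 2.70 in HEK UL1 KO. All HEK UL1 KO libraries were above all HEK WT libraries, and the means were 1.92 ± 0.373 and 2.66 ± 0.171 (SD, n = 3 each). This is a 1.39-fold higher level, or 0.47 on the log2 scale (standard error 0.150, 95% confidence interval 0.14 to 0.81, adjusted p = 0.0301, edgeR). The call was lost in 5 of the 6 fits that left out 1 CN library (adjusted p from 0.0630 to 0.109 in those 5, edgeR), namely all but the one without HEK WT CN replicate 3. DESeq2 gave 0.40 (adjusted p = 0.120), the fit of all 12 libraries 0.39 (adjusted p = 0.309, edgeR) and the GAPDH reference 0.14 (adjusted p = 0.566, edgeR). HEXIM2, its paralogue with the same role, had 0.261, 0.156 and 0.164 CPM in HEK WT and 0.164, 0.267 and 0.287 in HEK UL1 KO, from 12 to 22 counts per library. Its log2 fold change was 0.29 with an interval of -0.53 to 1.11, so a change of the size of that in HEXIM1 was not detectable at this depth.

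CDK9, the kinase, had 0.725, 0.670 and 1.09 CPM in CN of HEK WT and 0.807, 0.773 and 1.22 in HEK UL1 KO. The log2 fold change was 0.16 with an interval of -0.38 to 0.71 (adjusted p = 0.627, edgeR). CCNT1, the cyclin that HIV Tat recruits, had 11.3, 11.3 and 11.7 CPM in HEK WT and 10.1, 10.8 and 9.81 in HEK UL1 KO. All its HEK UL1 KO libraries were lower, but the log2 fold change of -0.16 did not pass (interval -0.32 to 0.00035, adjusted p = 0.105, edgeR), with total counts the direction flipped to 0.05, and with GAPDH as the reference CCNT1 passed at -0.51 (adjusted p = 0.0198, edgeR).

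CCNT2, the other cyclin T, had 15.1, 15.5 and 15.1 CPM in CN of HEK WT and 11.6, 12.9 and 10.8 in HEK UL1 KO. The groups were well apart, at means of 15.2 ± 0.208 and 11.7 ± 1.08 (SD, n = 3 each). The level in HEK WT was 1.30-fold that in HEK UL1 KO, a log2 change of -0.37 (standard error 0.0789, 95% confidence interval -0.55 to -0.20, adjusted p = 0.00383, edgeR). CCNT2 stayed below 0 under all alternatives run, down to -0.73 with GAPDH, and passed with each CN library left out, but not with total counts (-0.17, adjusted p = 0.441, edgeR) or in the fit of all 12 libraries (-0.46, adjusted p = 0.208, edgeR). Across the members, HEXIM1, CCNT1 and CCNT2 had separate CPM ranges in the CN libraries of each genotype, 3 of 8 against 52.8% of all genes tested.

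**Figure D3:**
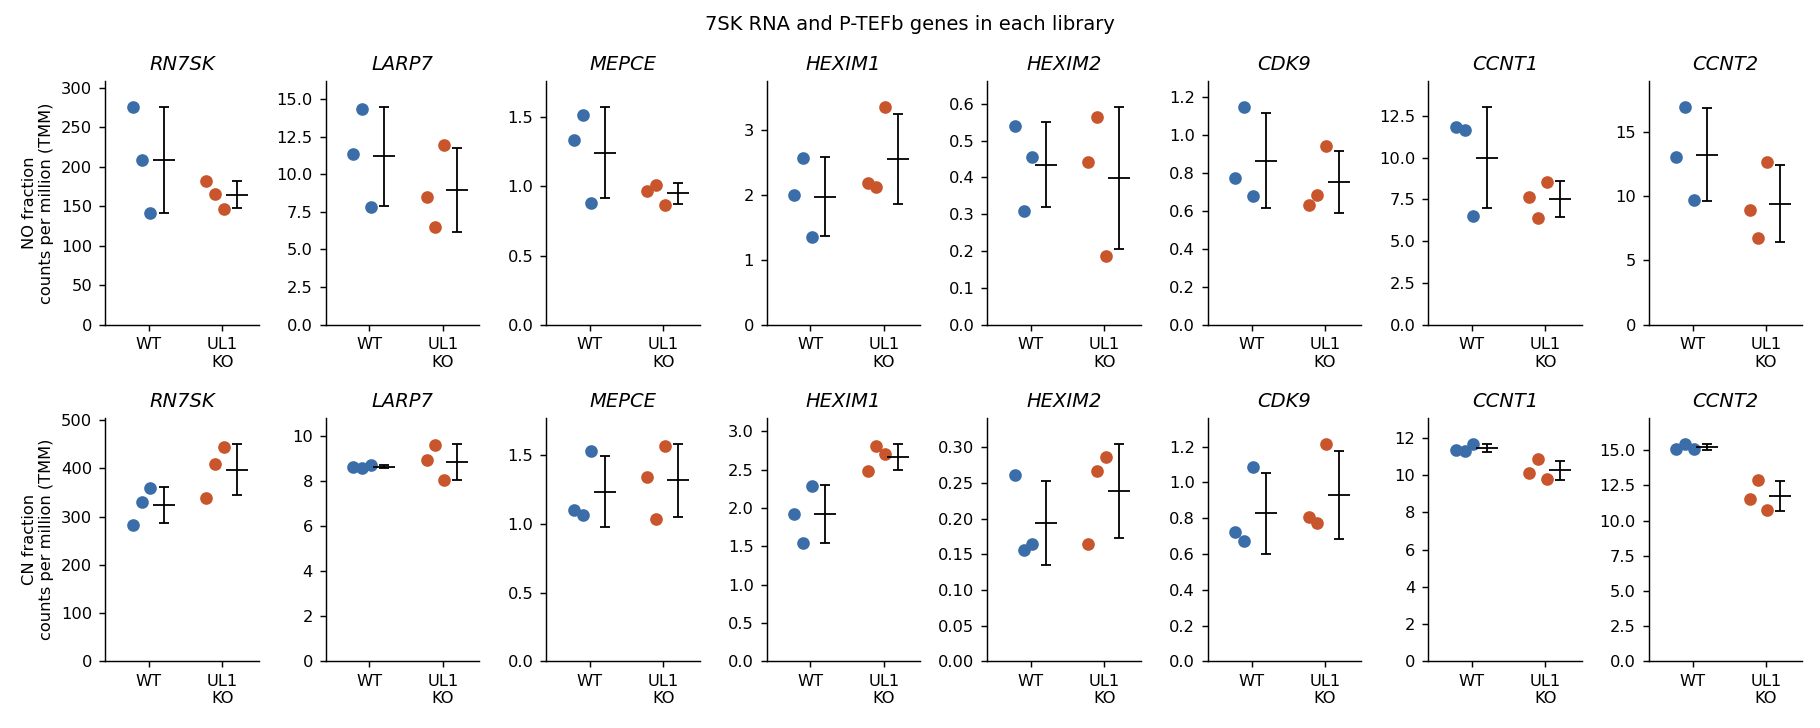
CPM of the 8 members in each library, with NO in the upper row and CN in the lower row, HEK WT in blue and HEK UL1 KO in orange, and the mean with its SD beside each group of 3. In CN, the HEK UL1 KO points of HEXIM1 lie above and those of CCNT1 and CCNT2 below the HEK WT points, while in NO the groups overlap for every member.

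In the NO fraction none of the 8 members differed between the genotypes at an adjusted p under 0.05 with edgeR, nor at an unadjusted p under 0.05, and DESeq2 called 0 as well. The background was 0.939% of 34836 genes, 0.365% upward and 0.574% downward. The CPM of the genotypes overlapped for all 8 members, against 20.1% of all genes without overlap. Of the 8 log2 fold changes, 7 were below 0 and that of HEXIM1 was above, but with total counts or with SNORD3A as the reference all 8 were above 0.

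RN7SK had 276, 208 and 142 CPM in NO of HEK WT and 182, 165 and 147 in HEK UL1 KO. The spread within HEK WT, 142 to 276, covered all HEK UL1 KO values. The log2 difference was -0.34 (standard error 0.396, 95% confidence interval -1.18 to 0.49, adjusted p = 0.676, edgeR), and -0.32 (adjusted p = 0.735, edgeR) for the sum with its copies. LARP7 was at 11.4, 14.4 and 7.83 CPM in HEK WT and 8.46, 6.47 and 11.9 in HEK UL1 KO, and MEPCE was at 1.33, 1.52 and 0.877 against 0.966, 1.01 and 0.868. Their log2 fold changes were -0.32 (interval -0.98 to 0.34) and -0.37 (interval -1.02 to 0.28).

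HEXIM1 had 2.00, 2.57 and 1.35 CPM in NO of HEK WT and 2.18, 2.12 and 3.35 in HEK UL1 KO, which gives 0.38 on the log2 scale with an interval of -0.27 to 1.03 (adjusted p = 0.546, edgeR). With SNORD3A as the reference it passed at 1.29 (adjusted p = 0.0101, edgeR), where 11246 of all 34836 genes tested were called higher. For HEXIM2, with 8 to 49 counts per library, the value was -0.12 (interval -1.03 to 0.78). CDK9 was at -0.20 (interval -0.91 to 0.52), CCNT1 at -0.41 (interval -1.03 to 0.22) and CCNT2 at -0.49 (interval -1.15 to 0.17, adjusted p = 0.449, edgeR). The intervals in NO were wider than in CN for each member, with standard errors from 0.297 to 0.430 against 0.0715 to 0.371.

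HEK WT NO replicate 3 had the lowest CPM of its group in 7 of the 8 members. These values share the scaling of the library, and the share of all genes for which it was lowest was not counted. Without this library, 9133 genes were called in NO in place of 327, and among the members CCNT1 passed at a log2 fold change of -0.66 (adjusted p = 0.0486, edgeR). The other fits that left out 1 NO library called 0 members.

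NO was next compared with CN within each genotype, which shows where the RNA of each member lay. Fold changes here are relative between fractions, since TMM brings the libraries to a common scale. The amount of RNA per cell in each fraction cannot be read from these bulk samples. The make-up of the fractions also differed, with rRNA at 55.3 to 65.1% of counts in NO and 73.9 to 78.7% in CN. In HEK WT, 3 of 8 members were lower in NO and 0 were higher, against a background of 52.8% of genes called, 20.9% lower and 31.9% higher. The libraries of the fractions did not overlap for 4 members, against 65.6% of genes. In HEK UL1 KO, 7 of 8 were lower in NO and 0 were higher, against 76.3% called, 35.6% lower and 40.7% higher, and 6 did not overlap, against 78.1% of genes.

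RN7SK showed the largest difference of the 8 in both genotypes. In the scaling of the HEK WT libraries, it had 201, 140.1 and 124 CPM in NO and 291, 338 and 383 in CN, which gives -1.12 on the log2 scale (standard error 0.261, adjusted p = 0.00712, edgeR). In the scaling of the HEK UL1 KO libraries, it had 167, 152 and 134 CPM in NO and 475, 586 and 600.5 in CN, which gives -1.87 on the log2 scale (standard error 0.221, adjusted p = 5.57e-05, edgeR). No NO library reached the level of a CN library. The sum with its copies was at -1.04 (adjusted p = 0.0160, edgeR) and -1.81 (adjusted p = 0.000119, edgeR), and RN7SK was lower in NO under every alternative run.

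The cyclins followed. CCNT1 had 8.62, 7.85 and 5.68 CPM in NO and 11.6, 11.5 and 12.5 in CN of HEK WT, and CCNT2 had 9.54, 11.4 and 8.48 in NO and 15.5, 15.8 and 16.2 in CN. Both were at a log2 fold change of -0.69 (adjusted p = 0.0108 for CCNT1 and 0.00655 for CCNT2, edgeR). In HEK UL1 KO they were at -1.05 (adjusted p = 0.000177, edgeR) and -0.92 (adjusted p = 0.00211, edgeR). With total counts, neither cyclin passed in either genotype, and with at least 10 counts in every library CCNT2 did not pass in HEK UL1 KO (-0.50, adjusted p = 0.0550, edgeR).

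MEPCE, HEXIM1 and CDK9 had log2 fold changes of -0.48, -0.46 and -0.43 in HEK WT, which did not pass (adjusted p = 0.162, 0.146 and 0.282, edgeR), and of -1.06, -0.68 and -0.93 in HEK UL1 KO, which passed (adjusted p = 0.000528, 0.00646 and 0.00376, edgeR). With total counts the value of HEXIM1 in HEK UL1 KO flipped to 0.07, and those of MEPCE and CDK9 did not pass, and with at least 10 counts in every library neither HEXIM1 (-0.25) nor CDK9 (-0.50) passed. In HEK WT, HEXIM1 passed without NO replicate 2 (-0.77, adjusted p = 0.0341, edgeR) and without the filter (-0.70), and in the fit of all 12 libraries MEPCE (-0.74, adjusted p = 0.0158, edgeR), HEXIM1 (-0.72, adjusted p = 0.0194, edgeR) and CDK9 (-0.69, adjusted p = 0.0468, edgeR) all passed. LARP7 had 8.30, 9.66 and 6.83 CPM in NO and 8.85, 8.77 and 9.28 in CN of HEK WT, which gives -0.12 on the log2 scale (interval -0.49 to 0.25), and in HEK UL1 KO it was at -0.59 (adjusted p = 0.0207, edgeR). With total counts LARP7 flipped to 0.19 in HEK WT and 0.17 in HEK UL1 KO, and its call in HEK UL1 KO was lost with TMM without rRNA genes (-0.48), with at least 10 counts in every library (-0.16), and without NO replicate 1, without NO replicate 2 or without CN replicate 2 (adjusted p from 0.0513 to 0.0748, edgeR). HEXIM2 was the only member above 0, at 0.73 (interval -0.23 to 1.70) in HEK WT and 0.17 (interval -0.66 to 1.00) in HEK UL1 KO, where it passed with total counts (0.93, adjusted p = 0.0497, edgeR).

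Although more members passed in HEK UL1 KO than in HEK WT, the difference between the genotypes was not significant for any of them. The interaction of genotype and fraction, which shares its libraries with the 4 comparisons above, called 0 of 8 members with edgeR (adjusted p = 1.0 for each) and 0 at an unadjusted p under 0.05, and DESeq2 called 0, against a background of 0.114% of 37806 genes, 0.0846% positive and 0.0291% negative. For RN7SK, the effect in NO minus the effect in CN was -0.48 on the log2 scale, with an interval of -1.29 to 0.34, and -0.49 for the sum with its copies. For the other members this difference ranged from -0.30 to 0.07.

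**Figure D4:**
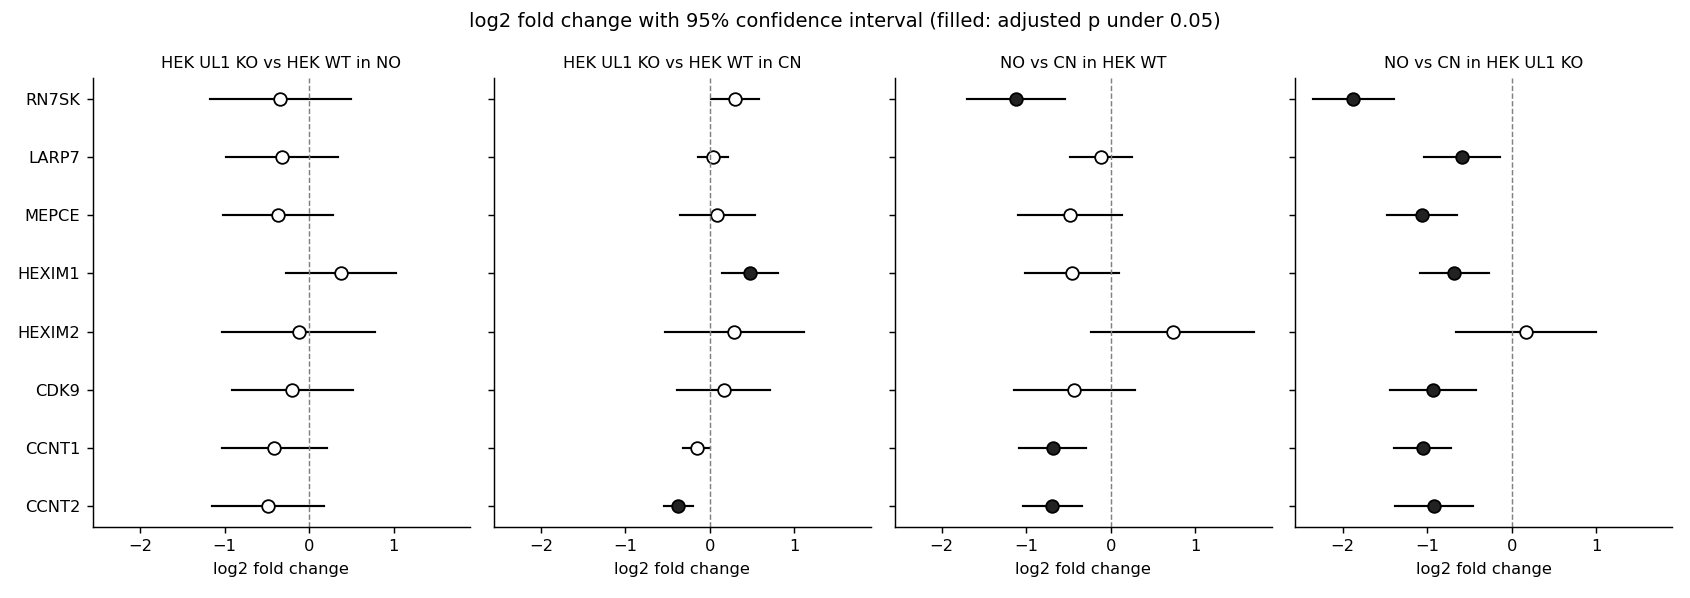
log2 fold change of each member with its 95% confidence interval in 4 comparisons, 2 of HEK UL1 KO against HEK WT and 2 of NO against CN. Filled points have an adjusted p under 0.05: none in NO, HEXIM1 and CCNT2 in CN, 3 members between the fractions of HEK WT and 7 between those of HEK UL1 KO.

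Ratios between members within a library do not depend on the scaling between libraries. The 7 ratios set for this purpose were compared between the genotypes in both fractions, which makes 14 exact two-sided permutation tests, each with a smallest possible p of 0.1 for 3 libraries against 3. None could therefore pass 0.05, and the smallest adjusted p was 0.525. The balance of the cyclins, CCNT1 to CCNT2, was 0.751, 0.731 and 0.772 in CN of HEK WT and 0.873, 0.841 and 0.912 in HEK UL1 KO. Every HEK UL1 KO library was higher, with means of 0.751 ± 0.0202 and 0.875 ± 0.0357 (SD, n = 3 each, exact permutation test, p = 0.1). In NO the ratio was 0.670 to 0.904 in HEK WT and 0.673 to 0.947 in HEK UL1 KO, with overlap (exact permutation test, p = 0.6).

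The counts of the inhibitors over the kinase, HEXIM1 plus HEXIM2 to CDK9, were 3.30, 2.51 and 2.67 in NO of HEK WT and 4.16, 3.93 and 3.77 in HEK UL1 KO. Here, too, all HEK UL1 KO libraries were higher (2.83 ± 0.415 and 3.95 ± 0.192, SD, n = 3 each, exact permutation test, p = 0.1). CDK9 had 29 to 70 counts and HEXIM2 8 to 49 per NO library, with mean levels inside the olfactory receptor range given above. Of the 14 tests, only this one and that of CCNT1 to CCNT2 in CN had no overlap. Both had an adjusted p of 0.525 (exact permutation test), and how many ratios of other genes separate in this way was not counted. In CN the ratio of HEXIM1 plus HEXIM2 to CDK9 overlapped, at 2.26 to 3.02 in HEK WT and 2.46 to 3.98 in HEK UL1 KO (exact permutation test, p = 0.3). RN7SK to LARP7 was 32.9 to 41.2 in CN of HEK WT and 38.1 to 55.3 in HEK UL1 KO (exact permutation test, p = 0.3), and 14.5 to 24.2 and 12.3 to 25.6 in NO (exact permutation test, p = 0.9). The ratios of RN7SK to MEPCE, HEXIM1 to HEXIM2 and both cyclins to CDK9 overlapped between the genotypes in both fractions, with p from 0.3 to 0.8 (exact permutation test).

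As a share of all counts, RN7SK held 0.0301 ± 0.00391% in CN of HEK WT and 0.0428 ± 0.00619% in HEK UL1 KO (SD, n = 3 each). The HEK UL1 KO libraries were all higher, with a range of 0.0361 to 0.0484% against 0.0272 to 0.0345% (exact permutation test, p = 0.1, adjusted p = 0.2 over 4 tests). Of the counts outside rRNA it held 0.124 ± 0.0104% and 0.168 ± 0.0258%, again without overlap (exact permutation test, p = 0.1, adjusted p = 0.2). How many of all genes separate on these scales was not counted. In CN, total counts gave 3697 genes higher and 1724 lower. With TMM, RN7SK overlapped there, while 52.8% of all genes tested did not. In NO the shares of RN7SK in all counts overlapped, at 0.0129 to 0.0198% in HEK WT and 0.0169 to 0.0243% in HEK UL1 KO (exact permutation test, p = 0.6).

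The lists around P-TEFb are to be read against the shares of all genes called in CN with TMM, 37.9% in all, 22.3% lower and 15.6% higher. Their counts under another scaling have another background. Of the 27234 genes tested in CN, total counts called 1724 lower and 3697 higher, and GAPDH called 9068 lower and 1092 higher. In NO, SNORD3A called 89 of 34836 genes lower and 11246 higher. Of 12 other abundant RNAs of RNA polymerase III listed, 11 were tested in CN, all 11 had a log2 fold change below 0 in HEK UL1 KO, 5 fell and 0 rose, and their median was -0.58 against 0.04 for all genes, while with total counts 2 of the 11 were above 0 and 3 fell, and with GAPDH 9 fell. The Y RNAs RNY5 (-2.09, adjusted p = 8.75e-05, edgeR), RNY1 (-1.53, adjusted p = 0.00154, edgeR) and RNY4 (-1.11, adjusted p = 0.0142, edgeR) fell most, with RPPH1, the RNA of RNase P, at -0.66 (adjusted p = 0.00713, edgeR). In NO, 9 were tested, all 9 were below 0 with a median of -1.10, and 0 passed, while with SNORD3A as the reference 3 of the 9 were above 0. The ratio of RN7SK to RN7SL1, the RNA of the signal recognition particle, was 2.66, 3.31 and 2.02 in CN of HEK WT and 3.20, 3.79 and 3.69 in HEK UL1 KO, which overlapped in 1 pair of libraries (exact permutation test, p = 0.2). In NO it was 0.930, 0.894 and 1.07 in HEK WT and 1.77, 0.988 and 1.22 in HEK UL1 KO, also with overlap (exact permutation test, p = 0.2).

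Of 10 factors that drive type 3 RNA polymerase III promoters such as that of RN7SK, 9 were tested in CN. Of these, 4 fell and 1 rose, with a median of -0.24 (22.3% of all genes lower, 15.6% higher), and with total counts 1 fell and 1 rose, with GAPDH 6 and 1. BDP1, a subunit of TFIIIB, was at -0.75, the octamer factor POU2F1 at -0.50 and the SNAPc subunit SNAPC3 at -0.45, while SNAPC5 was at 0.94, and all 4 passed. The relatives of LARP7 and MEPCE showed 5 of 7 lower in CN and 0 higher, against 22.3% of all genes lower (2 lower with total counts), with LARP4B at -0.75, LARP4 at -0.66, LARP1B at -0.31 and the La protein SSB at -0.26. In NO, none of either list passed with TMM, while with SNORD3A 1 of each passed as higher.

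Among 13 factors that release or recruit P-TEFb, 5 fell in CN and 0 rose. The share called was near the 37.9% of all genes called, of which 22.3% of genes were lower and 15.6% higher. With total counts 1 of the 13 fell, and with GAPDH 10. The splicing factor SRSF2 was at -0.67, the corepressor TRIM28 at -0.57, the helicase DDX21 at -0.57 and the phosphatase PPM1A at -0.49. In NO, all 13 were below 0 with a median of -0.57 and 0 passed, but with total counts 7 were above 0 and with SNORD3A 12. The super elongation complex, which carries P-TEFb, had 3 members up and 2 down of 10 in CN, 2 up and 1 down with total counts and 1 up and 3 down with GAPDH. MLLT3, its chromatin reader, was at -1.59 (adjusted p = 3.53e-06, edgeR) and EAF1 at -0.59, while the scaffolds AFF3 and AFF1 were at 0.30 and 0.22, with signs that turned under GAPDH. MLLT3 was also the 1 listed gene that passed in NO with TMM, at -1.40 (standard error 0.303, adjusted p = 0.0379, edgeR), though not with total counts (-0.92) or SNORD3A (-0.50). With SNORD3A, AFF3, ELL3, NELFE, SNAPC5, LARP6, EGR1, FOS and IER2 passed in NO instead, as higher in HEK UL1 KO, which are named here after their values were seen. That scaling called 11246 of all 34836 genes tested in NO as higher, so these calls do not set the listed genes apart.

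The other CTD kinases and their cyclins all passed in CN, 5 of 6 lower and 1 higher, with a median of -0.51 (3 lower and 1 higher with total counts, 5 lower and 0 higher with GAPDH). They were led by the 3 subunits of the CDK-activating kinase of TFIIH, CDK7 at -0.95 (adjusted p = 8.92e-05, edgeR), CCNH at -0.82 (adjusted p = 2.67e-05, edgeR) and MNAT1 at -0.67 (adjusted p = 9.27e-05, edgeR), followed by CDK13 at -0.35. In NO all 6 were below 0 and 0 passed, while with total counts 3 were above 0 and with SNORD3A 5. Of the 6 pausing factors that P-TEFb phosphorylates, 2 rose in CN and 0 fell, and these were the NELF subunits NELFE at 0.52 and NELFA at 0.34, while with GAPDH 0 rose and 3 fell. Of 8 short-lived transcripts whose synthesis is known to depend on CDK9, 6 were tested in CN, 3 rose and 0 fell, with the immediate early gene EGR1 at 1.32 (adjusted p = 0.00197, edgeR), while with GAPDH 1 rose and 1 fell, and in NO 7 were tested and 0 passed, against 3 that were higher with SNORD3A.

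**Figure D5:**
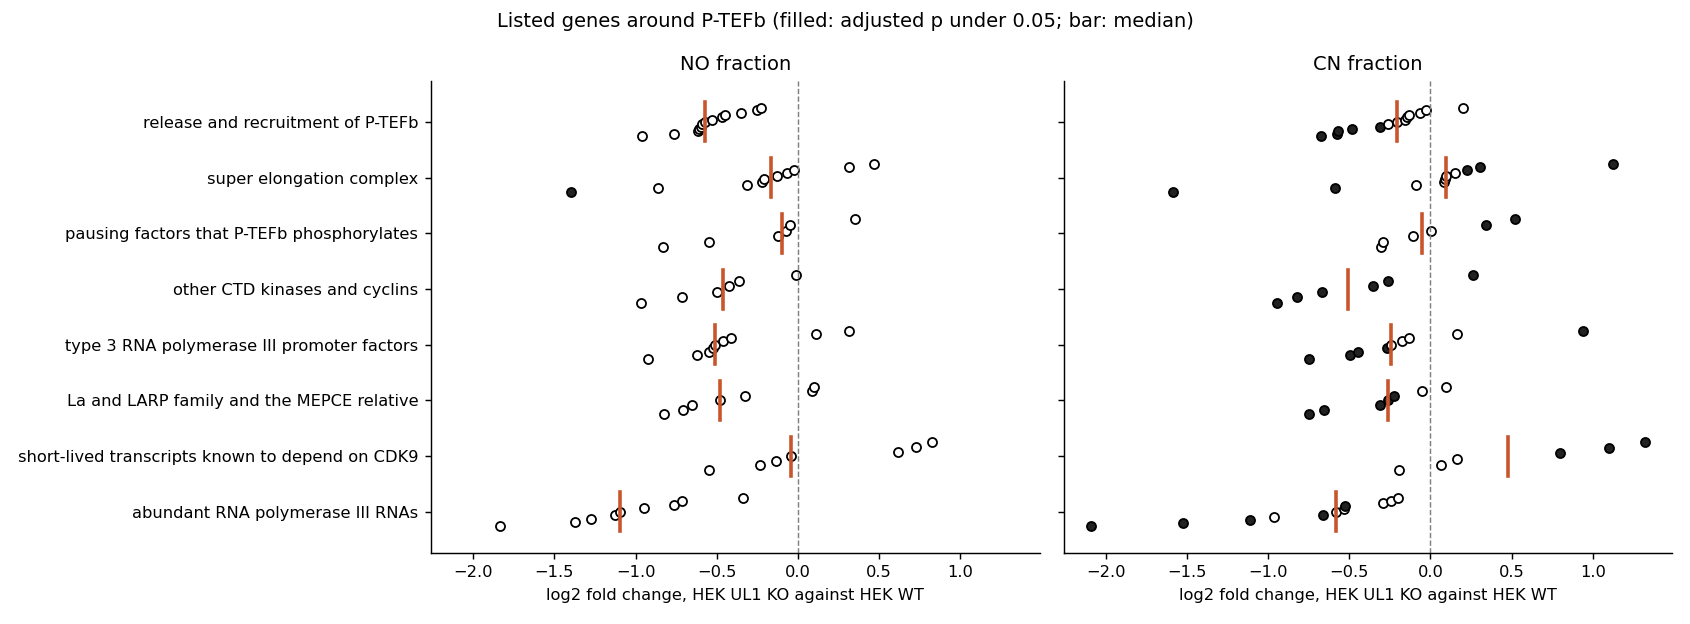
log2 fold change of HEK UL1 KO against HEK WT for the genes of 8 lists around P-TEFb, in NO (left) and CN (right). Filled points have an adjusted p under 0.05 and the orange bar is the median of the list: with TMM, the 1 filled point in NO is MLLT3, and all tested RNA polymerase III RNAs lie below 0 in CN, where 2 of them are above 0 with total counts.

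Between the fractions, most of the listed genes also had log2 fold changes below 0. All 6 of the other CTD kinases and cyclins were lower in NO of HEK WT, as were 7 of 13 release factors, 5 of 10 of the super elongation complex, 4 of 7 of the La and LARP family, 4 of 9 promoter factors, 1 of 6 pausing factors, 1 of 7 short-lived transcripts and 7 of 11 RNA polymerase III RNAs, against 20.9% of all genes lower and 52.8% called. In HEK UL1 KO, where 35.6% of all genes were lower and 76.3% called, these counts were 6 of 6, 13 of 13, 8 of 10, 5 of 7, 8 of 9, 6 of 6, 6 of 7 and 6 of 9 in the same order. In HEK WT, only the short-lived transcripts and the RNA polymerase III RNAs had a member higher in NO, 1 gene each. With total counts, 606 of all 29340 genes tested were lower in NO of HEK WT. Scaled that way, the lower listed genes in HEK WT were 2 of 6 CTD kinases and cyclins, 0 of 13 release factors and 6 of 11 RNA polymerase III RNAs. They were also 1 of 10 of the super elongation complex, 1 of 7 of the La and LARP family and 1 of 7 short-lived transcripts. Of the promoter factors and the pausing factors, 0 were lower. The lists in HEK UL1 KO were not run with total counts, which there moved the median of all genes by 0.76. RMRP, the RNA of the nucleolar RNase MRP, was higher in NO of HEK WT at 1.93 (adjusted p = 0.00252, edgeR), while RNY5 was at -4.32 (adjusted p = 0.000168, edgeR) and RPPH1 at -2.31 (adjusted p = 0.00195, edgeR). RN7SK, at -1.12, lay between them.

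The pattern of RN7SK over the 12 libraries was compared with that of 17947 genes with a mean of at least 50 counts, by Pearson's r of log2 CPM. These values describe likeness over the same libraries, whose 2 fractions differ for most genes. The gene most like it was PLCG2 (r = 0.993), whose exon contains RN7SKP176. ASF1B, a histone chaperone that the tables list under 2 entries, had r = 0.976 for both, and ZNF589, a zinc finger gene, had r = 0.974. Among the members, CCNT1 (r = 0.921, rank 529 of the 17947 genes) and MEPCE (r = 0.920, rank 568) were most like RN7SK. They were followed by CDK9 (0.809, rank 5309), CCNT2 (0.799, rank 5767), HEXIM1 (0.719, rank 8233) and LARP7 (0.701, rank 8633). HEXIM2 had too few counts for this comparison.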

How the data were processed

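The authors trimmed single reads of 75 bases with Cutadapt 3.7 after FastQC 0.11.4, aligned them to GRCh38 with STAR 2.7.8, with several alignments allowed per read, and counted genes with featureCounts; versions come from the submitters' processing notes. They deposited raw counts per gene in one table per fraction, without normalization. Counting options, strand setting and annotation release are not given in the sources used here. All 12 columns were matched to groups by the labels.

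Counts were tested with edgeR 4.0.16 (R 4.3.3): filterByExpr (defaults of 10 counts in enough libraries and 15 in total), TMM, the quasi-likelihood F test, and Benjamini-Hochberg adjustment over all genes tested, called under 0.05. CPM are scaled by TMM within each fit. Standard errors are the log2 fold change over the square root of F. DESeq2 1.42.0, other scalings, filters and left-out libraries were alternatives, and the lists under other scalings were added after seeing the data. Tests were checked on simulated counts with large changes added to genes with a mean of at least 50 counts. That check does not reach genotype effects as small as those of the members, nor the choice of scaling. Figures and sequence searches used Python 3.11.15, and sequences were read from GRCh38 at RefSeq and GENCODE release 44 positions.

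All 8 members are named, with HNRNPUL1, the markers, and of each list at most the 4 genes with the largest absolute log2 fold change among those called with a mean of at least 50 counts. ELL3, FOS and IER2 were called below that mean in CN. The members, the 8 lists and the markers were chosen with earlier results of these data known. Libraries of 1 group differed by a chi-square per gene of at least 14.3, far above counting error. Of the 5 entries most like RN7SK, 1 is not reported here.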

Additional observations from a re-analysis of the deposited data

How the results depend on the processing

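Between the genotypes in CN, the number of members called was 2, and it was 1 with DESeq2, 0 with all 12 libraries in one fit and 1 to 3 with 1 library left out. In NO it was 0, and 1 with SNORD3A as the reference (HEXIM1, higher) and 0 to 1 with 1 library left out. Between the fractions, 3 in HEK WT became 1 with total counts and 6 in the fit of 12 libraries, and 7 in HEK UL1 KO became 2 with total counts (1 higher and 1 lower) and 3 with at least 10 counts in every library. The cause was not tested, except that this filter and DESeq2 in NO tested fewer members.

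Directions in NO that turned were, with total counts and with SNORD3A in this order, those of RN7SK (0.19 and 0.51), LARP7 (0.21 and 0.62), MEPCE (0.14 and 0.46), HEXIM2 (0.27 and 0.62), CDK9 (0.29 and 0.68), CCNT1 (0.14 and 0.49) and CCNT2 (0.030 and 0.45), none of them called. In CN, GAPDH turned RN7SK (-0.061), LARP7 (-0.31), MEPCE (-0.25), HEXIM2 (-0.062) and CDK9 (-0.17), total counts turned CCNT1 (0.047), and LARP7 turned with DESeq2 (-0.027) and 12 libraries (-0.047). Between fractions, LARP7 turned in HEK WT with total counts (0.19) and at least 10 counts (0.11), LARP7 (0.17) and HEXIM1 (0.074) in HEK UL1 KO with total counts, and HEXIM2 there with DESeq2 (-0.031) and no filter (-0.00111). In the interaction, HEXIM1 (-0.016) and CCNT2 (-0.032) turned with TMM without rRNA genes, HEXIM1 (-0.083) and CCNT2 (-0.094) without the filter, and CCNT1 (0.094) with total counts.

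With 1 library left out, values that crossed 0 ranged from -0.34 to 0.16 for HEXIM2 and -0.40 to 0.064 for CDK9 in NO, from -0.017 to 0.12 for LARP7, -0.037 to 0.32 for MEPCE and -0.051 to 0.45 for CDK9 in CN, from -0.41 to 0.0051 for LARP7 between fractions of HEK WT and from -0.13 to 0.35 for HEXIM2 between those of HEK UL1 KO. In the interaction they were -0.47 to 0.028 for LARP7, -0.19 to 0.28 for HEXIM1, -0.49 to 0.014 for CDK9, -0.31 to 0.055 for CCNT1 and -0.24 to 0.28 for CCNT2.

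Over all genes, 327 calls in NO became 1082 with DESeq2, 10 with total counts, 1190 without a filter, 143 with at least 10 counts, 11335 with SNORD3A, 1744 with 12 libraries and 123 to 9133 with 1 library left out. In CN, 10323 became 5421 with total counts and 4217 with 12 libraries. In HEK WT, 15494 became 6993 with total counts, 8759 with at least 10 counts and 24943 with 12 libraries, in HEK UL1 KO 26287 became 13163 with at least 10 counts, and in the interaction 43 became 79 with DESeq2, 0 with total counts (458 at an unadjusted p under 0.05), 104 without a filter, 20 with at least 10 counts and 25 to 57 with 1 library left out.

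The replicate numbers gave no sign of pairing, since the deviations of same-numbered libraries correlated at -0.482 to -0.0439 over 12 pairs and in 0 pairs best with each other. Blocking on the replicate number called 0, 2, 3, 7 and 0 members in the 5 comparisons, as without it, and 225, 8438, 9577, 24639 and 30 genes in all. Depth limits HEXIM2, with 8 to 49 counts per library, and the 3 libraries per group limit every permutation test.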
